A study of Mus musculus with 16 samples.

Results

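The genes described are the neural identity factors of the SOX family Sox1, Sox2, Sox4, Sox5, Sox6, Sox8, Sox9, Sox11 and Sox21, with the paired-box factor Pax6. They were chosen by name, and 9 of the 10 listed genes were found among the 50600 genes counted. Sox1 was not analysed here, because the name tables used did not pair it with an identifier of the files. The cells were F1 hybrids of a 129/Sv mother and a Cast/EiJ father. Embryonic stem cells were kept in N2B27 medium for 7 days, then as aggregates for 3 days with EGF and FGF2 (10 ng/mL of each), and neural progenitor cells (NPCs) were expanded from them with both factors. Every library came from a clone picked by hand as a colony from diluted NPCs. Poly(A) libraries were made from 5 astrocyte cultures, obtained by growing NPC clones in a medium with BMP4 (the female clones 129, C2 and G4 and the male clones mC3 and mE6), and from 3 NPC clones (the female F5 and the male mG2 and mG6). The study's methods give the astrocyte medium as N2B27 with BMP4 and a lower dose of FGF2, and name no EGF in it. The name of clone 129 is a label and does not refer to the strain. A further 4 NPC clones, all male and named Ch3, Ch5, Ch7 and Ch8, were sequenced after ribosomal RNA depletion in 2 libraries per clone. The astrocyte and NPC libraries came from different clones, so no clone was followed through differentiation in the values given here.

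SOX proteins bind DNA through an HMG box. Sox2 and its relatives maintain the progenitor state in the neural tube, Sox4 and Sox11 form the SoxC group and act in neuronal differentiation, and Sox5 and Sox6 form the SoxD group, which has no activation domain of its own. Sox8 and Sox9 are SoxE factors of glial development, with Sox9 needed for the switch of progenitors to glia, Sox21 counteracts Sox2 and its relatives, and Pax6 patterns the forebrain, the eye and the neural tube. Since the parental genomes differ at many SNPs, reads that cover one can be given to the 129 or the Cast allele, and the allelic expression ratio is the share of such reads that came from the Cast allele (% Cast). Levels are given in CPM, the reads of a gene scaled to the total of its library on genes. They are compared between clones for a gene and never between genes, because CPM is not corrected for gene length.

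The poly(A) libraries held 69925081 to 105892734 reads on genes, and the ribosomal RNA-depleted libraries 20871111 to 30920672, of which 18.9 to 34.8% were allele-specific. The labelled cell types were checked on marker genes. Gfap, the intermediate filament of astrocytes, lay between 61.9 and 2092 CPM in the astrocyte cultures and between 0.444 and 3.45 CPM in the NPC clones, and clone 129 was the highest. In the astrocytes, 3 of 9 astrocyte markers were higher and 1 was lower than in poly(A) NPCs, all 6 proliferation markers were lower, and 2 of 5 progenitor markers were lower. The higher astrocyte markers were Gfap, the water channel Aqp4 and the glutamate transporter Slc1a2, the lower one was Aldh1l1, and the lower progenitor markers were Nes and Msi1. Among the neuron markers Snap25 was higher and Neurod1 lower of 9 tested, and among those of the oligodendrocyte lineage Olig2 was lower of 6. Of 3 pluripotency markers Tdgf1 was higher and Pou5f1 lower, of 6 mesenchyme markers Col1a1 was higher, and of 2 neural crest markers Mitf was higher. Of 3 endothelium markers Kdr and Pecam1 were higher and Tek was lower, and the 1 tested microglia marker did not pass. Several of these levels were low. The means in astrocytes and poly(A) NPCs were 0.887 and 0.135 CPM for Tdgf1 and 0.005 and 0.446 CPM for Pou5f1. They were 0.830 and 0.134 CPM for Pecam1, 0.253 and 3.36 CPM for Tek, and 45.8 and 1.55 CPM for Kdr. Col1a1 ran from 2.30 to 200 CPM among the astrocyte cultures. C1qa of microglia and Mag and Sox10 of oligodendrocytes were at 0 reads in all 5 astrocyte cultures.

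Sox4 and Sox11 were the members that changed between astrocytes and poly(A) NPCs. The sequences just before their start sites are therefore shown, as the reference genome has them and without the variants of either parental strain. They are the 250 bases before the RefSeq start on GRCm38.p6, both on the minus strand, and capitals mark the letters CCAAT on either strand.

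Sox4, chr13:28953700-28953949: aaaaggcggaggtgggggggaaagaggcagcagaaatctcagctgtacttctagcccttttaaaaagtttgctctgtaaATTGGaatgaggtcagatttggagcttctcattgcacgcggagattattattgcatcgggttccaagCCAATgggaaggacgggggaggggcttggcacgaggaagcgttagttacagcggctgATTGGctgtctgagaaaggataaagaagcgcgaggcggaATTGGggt
Sox11, chr12:27342719-27342968: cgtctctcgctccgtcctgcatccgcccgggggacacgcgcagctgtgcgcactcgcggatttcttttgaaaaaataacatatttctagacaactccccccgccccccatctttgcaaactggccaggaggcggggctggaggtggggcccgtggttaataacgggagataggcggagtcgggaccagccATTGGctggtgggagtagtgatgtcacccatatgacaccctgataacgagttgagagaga

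CCAAT, whose letters were picked after the windows had been read, occurred 4 times before Sox4 and 1 time before Sox11, and 33.8% of the 32851 windows of this kind held it on either strand. The core SOX motif AACAAT was in neither window and in 9.42% of all windows. GGCGCC, a sequence that SMAD factors of BMP signalling can bind and that reads the same on both strands, was in neither and in 9.59%. The motifs do not overlap each other. G and C made up 50.8% of the Sox4 window and 58% of the Sox11 window, against a median of 52.4% over all windows.

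Expression in the 5 astrocyte cultures was compared with the 3 poly(A) NPC clones to ask which of these factors change when progenitors become astrocytes. Sox11 and Sox4 were lower in astrocytes, each by about 4 times, and the other 7 members did not pass the test. All genes tested gave 12.6% lower and 13.0% higher calls, 25.5% in all (edgeR's quasi-likelihood test, Benjamini-Hochberg adjusted p below 0.05), and 2 of 9 members is close to that background. The median log2 difference was -0.47 over the 9 members and 0.08 over all genes. In bulk samples, fewer cells of a type and less RNA per cell cannot be told apart.

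Sox11 was at 93.5 CPM in clone 129, 39.9 in C2, 26.6 in G4, 33.5 in mC3 and 13.8 in mE6. In the poly(A) NPC clones it was at 144, 237 and 169 CPM in F5, mG2 and mG6. The groups did not overlap, and clone 129 was the highest astrocyte culture. The log2 difference was -2.12 with an SE of 0.49 (adjusted p = 0.0169, edgeR), which is 4.34-fold lower in astrocytes.

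Sox4 was at 190 CPM in clone 129, 58.9 in C2, 30.4 in G4, 73.3 in mC3 and 29.1 in mE6, against 254, 425 and 252 CPM in F5, mG2 and mG6. Again the groups did not overlap and clone 129 stood above the other astrocytes. Among all tested genes, 16.6% had every astrocyte culture below every poly(A) NPC clone. The log2 difference of Sox4 was -2.0 with an SE of 0.56 (adjusted p = 0.0326, edgeR), which is 4.01-fold lower. Both alleles of each gene were lower. For Sox4 the mean over astrocytes of the allele-specific CPM was 0.288 of that over poly(A) NPC clones on the Cast allele and 0.284 on the 129 allele, and for Sox11 it was 0.231 and 0.234.

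Sox4 lost its call without clone C2 (adjusted p = 0.0582), mC3 (0.0641), F5 (0.0694), mG2 (0.115) or mG6 (0.0567), and Sox11 lost its call without mG2 (0.0659), with edgeR and Benjamini-Hochberg adjustment in each fit. Without clone 129 both differences were larger, at -2.60 for Sox11 and -2.61 for Sox4. The library titles carry codes that differ between the cell types, so the code and the cell type cannot be told apart. Within the astrocyte cultures of 1 code (129, mC3 and mE6), the differences were -2.02 for Sox11 and -1.72 for Sox4 and neither passed (adjusted p = 0.0696 and 0.0993, edgeR), and with the other code (C2 and G4) they were -2.35 and -2.68 and both passed (0.0101 and 0.0136). Markers of other cells varied among these cultures too. The summed level of the 9 neuron markers was 46.9 CPM in clone 129 and 15.1 to 31.9 CPM in the other astrocytes, against 30.1 to 48.1 CPM in poly(A) NPCs. Among them, Tubb3 was at 17.4 CPM in clone 129 and 1.24 to 5.07 CPM in the other astrocytes. Dcx was at 1.85 CPM in clone 129 and 0.213 to 6.66 CPM in the others. Stmn2, a marker of differentiated neurons, was at 0 to 1.18 CPM in the astrocytes, with 0 in clone 129. Stmn2 was low in poly(A) NPCs too, at 0.183 to 0.642 CPM. Other neuron markers were not as low. Snap25 ran from 1.61 to 20.9 CPM in the astrocytes and from 0.143 to 0.916 CPM in poly(A) NPCs. Syt1 ran from 1.18 to 11.8 CPM and from 0.142 to 4.76 CPM. Neurod1 went the other way, at 0.137 to 0.933 CPM in the astrocytes and 4.87 to 8.05 CPM in poly(A) NPCs. The sum of the 6 proliferation markers was 113 CPM in clone 129, 69.8 to 76.1 CPM in the other astrocytes and 1409 to 1690 CPM in poly(A) NPCs. Their part in the Sox4 and Sox11 levels was not tested.

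**Figure D1:**
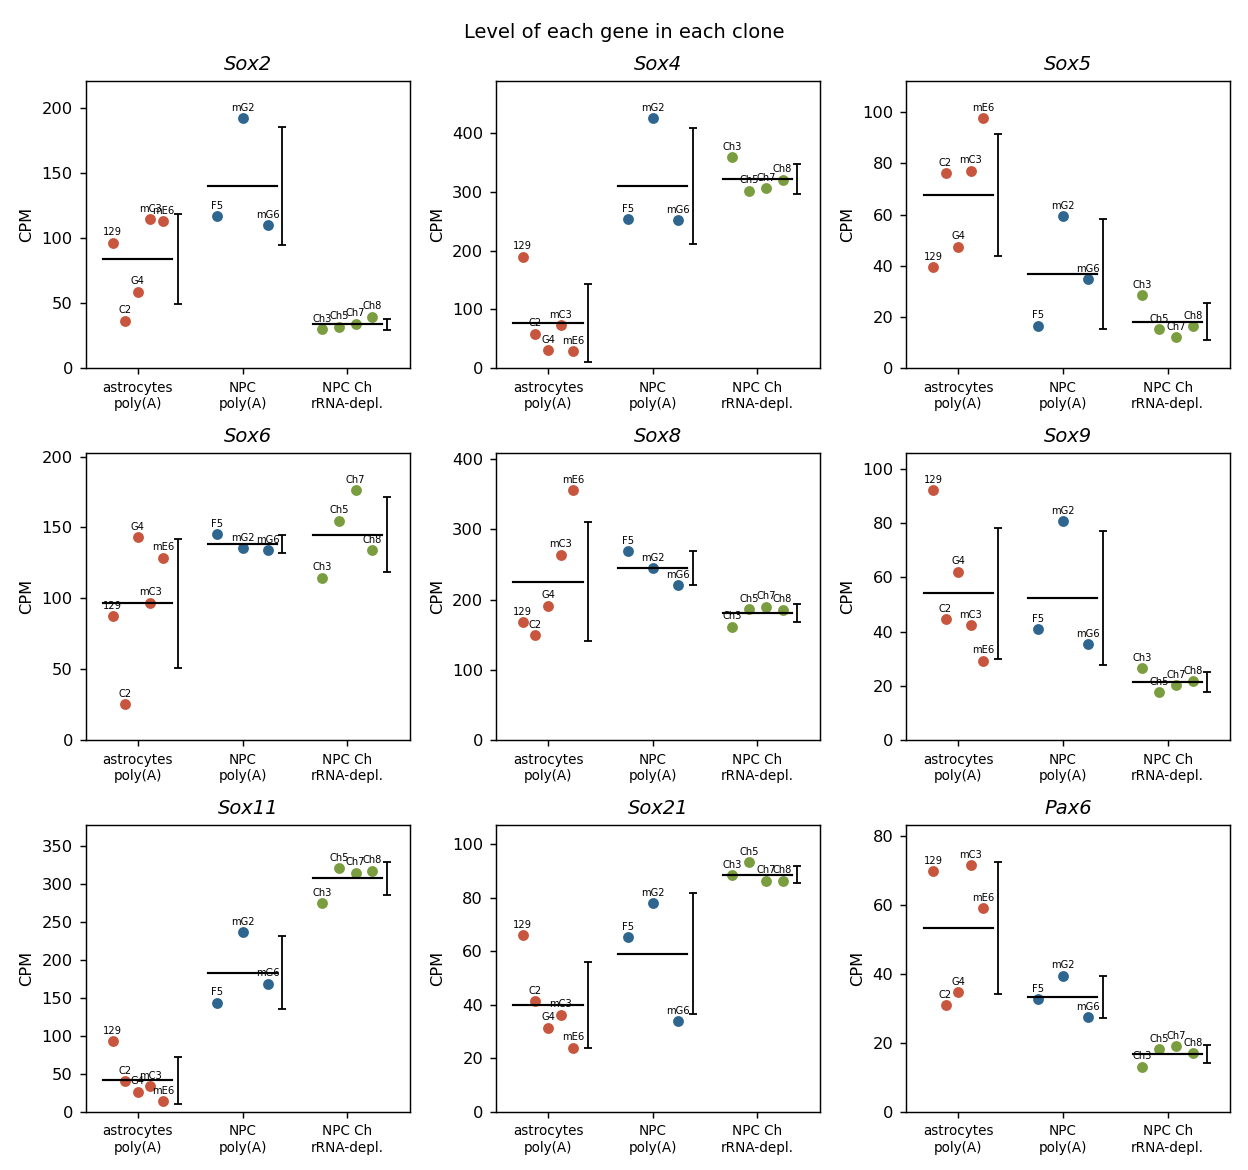
Level of the 9 genes in each of 12 clones, in CPM (y axis, from 0, a scale per gene), for the 5 astrocyte cultures, the 3 poly(A) NPC clones and the 4 Ch clones, whose 2 libraries were summed. Points are clones, horizontal lines group means and vertical bars SD. Sox4 and Sox11 are the genes whose astrocytes all lie below the poly(A) NPC clones.

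Sox2, the factor that marks neural progenitors, was at 96.4, 36.6, 58.7, 115 and 113 CPM in clones 129, C2, G4, mC3 and mE6, and at 117, 192 and 110 CPM in F5, mG2 and mG6. The groups overlapped, and C2 and G4 were the lowest. The log2 difference was -0.68 with an SE of 0.36 and did not pass (adjusted p = 0.201, edgeR). With C2 and G4, which shared a title code, as the only astrocytes it was -1.43 and passed (adjusted p = 0.0395, edgeR). Of 17 alternative fits this was the only 1 that passed for Sox2, and it kept the lowest cultures alone.

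Pax6 was at 69.9, 31.1, 34.8, 71.6 and 59.1 CPM in clones 129, C2, G4, mC3 and mE6, against 32.8, 39.6 and 27.6 CPM in the poly(A) NPC clones. Clones 129, mC3 and mE6 lay above every NPC clone, and C2 and G4 lay within the NPC range. The log2 difference was 0.72 with an SE of 0.30 (adjusted p = 0.108, edgeR). With 129, mC3 and mE6 as the only astrocytes it was 0.99 and passed (adjusted p = 0.0178, edgeR), and Pax6 was then the only member past the threshold. Of 17 alternative fits this was the only 1 that passed for Pax6, and it kept its highest cultures alone. C2 and G4, the cultures with the lowest Pax6 and Sox2, shared a title code and were female. Clone 129, the other female culture, carried the code of mC3 and mE6. Code and clone cannot be told apart there, and the part of code or sex in these levels was not tested.

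Sox5 was at 39.4, 76.2, 47.5, 77.2 and 97.6 CPM in clones 129, C2, G4, mC3 and mE6, and at 16.6, 59.4 and 34.7 CPM in F5, mG2 and mG6. The groups overlapped, with 3 astrocyte cultures above all NPC clones. The log2 difference was 0.95 with an SE of 0.45 (adjusted p = 0.152, edgeR), and with sex as a covariate it was 1.30 and passed (adjusted p = 0.0352). Sox6, its SoxD partner, lay at 25.4 CPM in C2 and at 87.5 to 143 CPM in the other astrocytes, against 138 ± 6.12 CPM (SD, n = 3) in the poly(A) NPC clones (log2 difference -0.47 ± 0.45 SE, adjusted p = 0.478, edgeR).

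The SoxE factors did not pass. Sox8 lay between 149 CPM in C2 and 356 CPM in mE6 and averaged 226 ± 84.7 CPM (SD, n = 5) in astrocytes, against 245 ± 24.03 (n = 3) in poly(A) NPCs, and its log2 difference was -0.06 with an SE of 0.30. Sox9 lay between 29.3 CPM in mE6 and 92.2 CPM in clone 129 and averaged 54.1 ± 24.3 CPM (SD, n = 5), against 52.4 ± 24.8 (n = 3), with a log2 difference of 0.10 and an SE of 0.38. The sign of both differences changed with the clone left out. Sox21 averaged 39.8 ± 16.02 CPM (SD, n = 5) against 59.1 ± 22.7 (n = 3), and the difference of -0.52 with an SE of 0.34 did not pass (adjusted p = 0.289, edgeR).

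Other genes of the families and the progenitor network were taken from fixed lists. Of the 10 other Sox genes, 3 were expressed enough to be tested and 2 were lower in astrocytes. Sox3, the X-linked relative of Sox2, was at 0.943 ± 0.373 CPM (SD, n = 5) in astrocytes and 63.7 ± 36.1 (n = 3) in poly(A) NPCs (log2 difference -6.02 ± 0.52 SE, adjusted p = 0.000206, edgeR). Sox13, the third SoxD gene, was at 4.88 ± 3.14 CPM against 15.8 ± 5.85 (log2 difference -1.62 ± 0.49 SE, adjusted p = 0.0432, edgeR). Of the 8 other Pax genes 3 were tested, and Pax4 was higher, at very low levels. It was at 0.591 ± 0.662 CPM (SD, n = 5) in astrocytes and 0.0161 ± 0.00766 (n = 3) in poly(A) NPCs (adjusted p = 0.0481, edgeR). The astrocyte cultures ran from 0.0250 to 1.35 CPM. Among the 32 tested of 42 progenitor and regional factors, 4 were higher and 1 was lower, beside 13.0% and 12.6% of all genes. Among the higher ones were Msx1, a target of BMP signalling (log2 difference 4.73 ± 0.90 SE), the orphan nuclear receptor Nr2f2 (1.56 ± 0.29) and Gli3 of the Hedgehog pathway (1.39 ± 0.35). The POU factor Pou3f1 was lower (-3.92 ± 0.88). The medians over the Sox, Pax and regional lists were -1.62, -0.25 and 0.72, against 0.05 over all named genes. Among 15 genes of proteins that act with or on SOX factors, 5 were lower and none was higher, with a median of -0.41. They were the HMG-box proteins Hmgb2 (-3.85 ± 0.30 SE) and Hmgb1 (-1.17 ± 0.19), the corepressor Tle1 (-1.27 ± 0.35), the chromatin remodeller Chd7 (-1.16 ± 0.35) and the deacetylase Hdac2 (-0.97 ± 0.21).

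**Figure D2:**
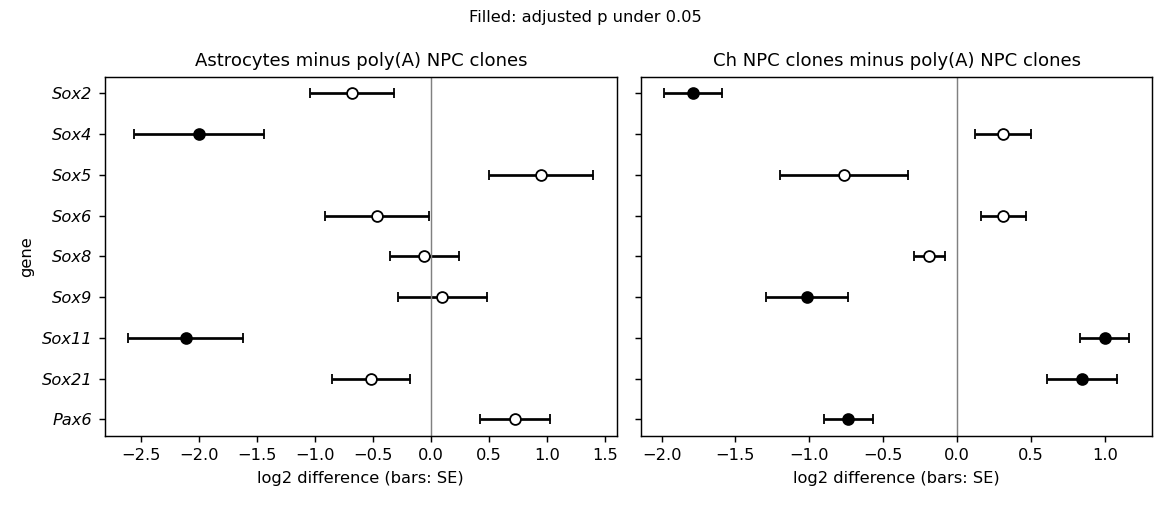
Log2 difference of each gene with its SE (x axis) between astrocytes and poly(A) NPC clones (left, 5 against 3 clones) and between Ch and poly(A) NPC clones (right, 4 against 3 clones), by edgeR. Filled points passed an adjusted p of 0.05. Sox4 and Sox11 are filled on the left at -2.0 and -2.12, and Sox2, Sox9, Sox11, Sox21 and Pax6 on the right.

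The 4 Ch clones give the levels in NPCs under another library preparation. Compared with the poly(A) NPC clones, Sox2, Sox9 and Pax6 were lower and Sox11 and Sox21 were higher in the Ch clones, beside 45.2% of all genes tested, 23.2% higher and 22.1% lower. Preparation and clone cannot be told apart here. Without F5, which leaves male clones alone, the same 5 members passed and Sox5 passed as well (log2 difference -1.12, adjusted p = 0.0312, edgeR). Sox2 was at 29.7 to 39.5 CPM in the Ch clones and at 110 to 192 CPM in the poly(A) NPC clones (log2 difference -1.79 ± 0.20 SE, adjusted p = 0.000281, edgeR). Sox11 was at 275 to 322 CPM against 144 to 237 CPM (1.00 ± 0.17 SE, adjusted p = 0.00202, edgeR). In the fitted differences, Sox9 stood at -1.02 ± 0.28 and Pax6 at -0.74 ± 0.16, and Sox21 was higher by 0.84 ± 0.24 (log2 ± SE). Sox9 lost its call without Ch5 or Ch7 (adjusted p = 0.0556 and 0.0553, edgeR). Sox4 lay at 302 to 359 CPM in the Ch clones, within the range of the poly(A) NPC clones, and did not pass (adjusted p = 0.215, edgeR), though it did without mG2 (0.0137).

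Among the Ch clones themselves, Sox5, Sox6 and Sox9 differed, and 16.6% of all genes tested did so (edgeR over the 8 libraries, with 3 degrees of freedom). The p-values here measure the spread between 2 libraries of a clone, which may be technical. Sox5 was at 28.6 CPM in Ch3, 15.2 in Ch5, 12.3 in Ch7 and 16.3 in Ch8, so that Ch3 stood above the others, and the highest and lowest clone differed by 1.23 on the log2 scale (adjusted p = 0.000737, edgeR). Its call held in all 12 alternative fits. Sox6 was at 115, 155, 176 and 134 CPM in Ch3, Ch5, Ch7 and Ch8, so that Ch3 was the lowest, with a range of 0.62 (adjusted p = 0.00707). Sox9 was at 26.4, 17.7, 20.2 and 21.8 CPM, with a range of 0.66 (adjusted p = 0.0187). Leaving out the second library of Ch3 ended the calls of Sox6 and Sox9 (adjusted p = 0.0542 and 0.0804, edgeR). Leaving out the second library of Ch7 ended that of Sox6 (0.0632, edgeR), and leaving out the first library of Ch3 or of Ch5 ended that of Sox9 (0.0963 and 0.0637, edgeR).

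Levels varied together in some pairs of members. After the mean of each of the 3 groups was taken out, the log2 CPM of Sox4 and Sox11 had a Pearson r of 0.92 over the 12 clones, and Sox2 and Pax6 one of 0.89. Sox8 and Sox11 had the lowest r, -0.70. These are descriptions over clones that share preparation and depth within groups. The genes named next were picked for the highest r among 8010, so a high r follows from the choice. The genes most like Sox11 in this measure, among 8010 genes with at least 10 CPM in each group, were Rnf20 (r = 0.98) and Ipo9 (0.97), and those most like Sox4 were Brpf1 and Zfp664 (both 0.96). For Pax6 they were Samd14 (0.98) and Zfp37 (0.95), for Sox2 Gm6767 (0.97) and Zcchc3 (0.96), and for Sox8 Pea15a and Cby1 (both 0.97). For Sox6 they were Abhd6 (0.95) and Vhl (0.94), for Sox9 Brd3 and Ipo4 (both 0.95), and for Sox21 Ddx23 and 2610301G19Rik (both 0.95). Sox5 had the least similar neighbours in this sense, Calcrl (0.84) and Cpeb2 (0.83).

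The allelic expression ratio asks whether the 2 copies of each gene were used equally in each clone. Ratios between 35 and 65% Cast were taken as biallelic and ratios below 15% or above 85% as monoallelic. Sox2, Sox4, Sox6, Sox8, Sox9, Sox21 and Pax6 stayed within the biallelic range in all 12 clones, while Sox5 left it in 6 clones and Sox11 in 3. Of 9581 autosomal genes that reached 20 allele-specific reads in all clones, 41.2% left the biallelic range in at least 1 clone and 16.6% were monoallelic in at least 1. These shares include the genes of chromosome 12, whose median was 100% Cast in Ch5, Ch7 and Ch8, and were not computed without them.

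Sox5 (chr6:143828425-144782287 on GRCm38) swung toward opposite alleles in different clones. It was at 67.4% Cast in clone 129, 20.6% in C2, 46.2% in G4, 73.9% in mC3 and 23.0% in mE6. In the poly(A) NPC clones it was at 39.2% in F5, 47.2% in mG2 and 23.5% in mG6, and in Ch3, Ch5, Ch7 and Ch8 at 41.7, 42.8, 41.3 and 67.6%. Clones 129, mC3 and Ch8 had more Cast reads, and C2, mE6 and mG6 had the lowest Cast shares. The 95% Wilson interval, which covers counting error only, lay above 50% in 3 clones and below it in 9. Each value rests on 208 to 3903 allele-specific reads. The range over clones was 53.4 percentage points, and 9.28% of the 9581 genes had a range as large. That share too includes the genes of chromosome 12, whose ranges were wide because of Ch5, Ch7 and Ch8.

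The genes nearest to Sox5 had smaller swings. Over the genes within 10 Mb, the median ratio lay between 46.2 and 50% in every clone, and over chromosome 6 between 48.8 and 49.9%. Of 20 genes within 3 Mb that could be measured in all clones, 0 had a range as large as that of Sox5, and their median range was 10.4 points. Farther out, 3 of 51 genes within 10 Mb had a range as large. Ccdc91 ran from 1.47% in C2 to 81.4% in G4, Grin2b from 3.39% in Ch3 to 73.4% in C2 and Atf7ip from 6.56% in F5 to 65.6% in clone 129, and these were picked after their values were seen. In the astrocyte cultures, the allele-specific level of Sox5 lay between 5.75 and 24.1 CPM for the Cast allele and between 5.57 and 32.0 CPM for the 129 allele. Clone mE6 had the highest 129 value and mC3 the highest Cast value. The mean total was 67.6 ± 23.8 CPM (SD, n = 5) in astrocytes.

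**Figure D3:**
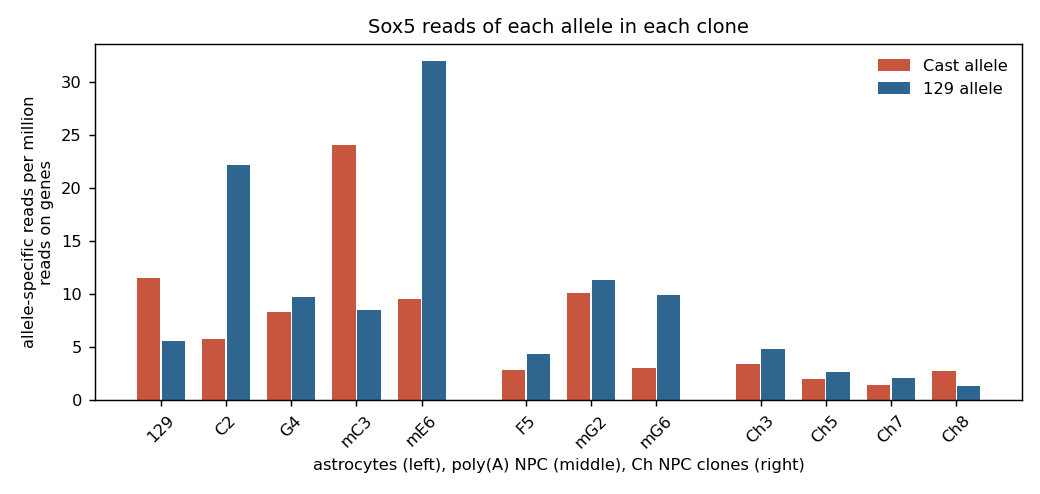
Allele-specific level of Sox5 in CPM (y axis, from 0) in each of 12 clones, with Cast in red and 129 in blue. Cast bars exceed 129 bars in clones 129, mC3 and Ch8, and the 129 bars of C2, mE6 and mG6 are the furthest above their Cast bars.

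Sox11 (chr12:27334268-27342718 on GRCm38) was read almost only from the Cast allele in 3 Ch clones. It was at 99.4% Cast in Ch5 (474 Cast and 3 129 reads), 100% in Ch7 (528 and 0) and 99.6% in Ch8 (490 and 2), against 56.4% in Ch3 (167 and 129). For Ch7 the 95% Wilson interval reached down to 99.3%. In these 3 clones reads came almost only from the Cast allele over the whole of chromosome 12, not at Sox11 alone. Only RNA was measured here, so the copies of each parental chromosome 12 that these clones held were not tested. The median ratio over 393 to 396 genes of the chromosome was 100% in Ch5, Ch7 and Ch8 and 49.7% in Ch3, and 98.5, 99.0 and 99.2% of the genes were above 95% Cast in Ch5, Ch7 and Ch8. The amount of RNA from the chromosome was not lower. Against Ch3, the median log2 ratio of total reads on chromosome 12 differed from that of the other autosomes by 0.01 in Ch5, -0.03 in Ch7 and 0.00 in Ch8, and the log2 ratio of Sox11 CPM to that in Ch3 was 0.22, 0.19 and 0.21. The level of Sox11 did not pass the test among the Ch clones (adjusted p = 0.374, edgeR).

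**Figure D4:**
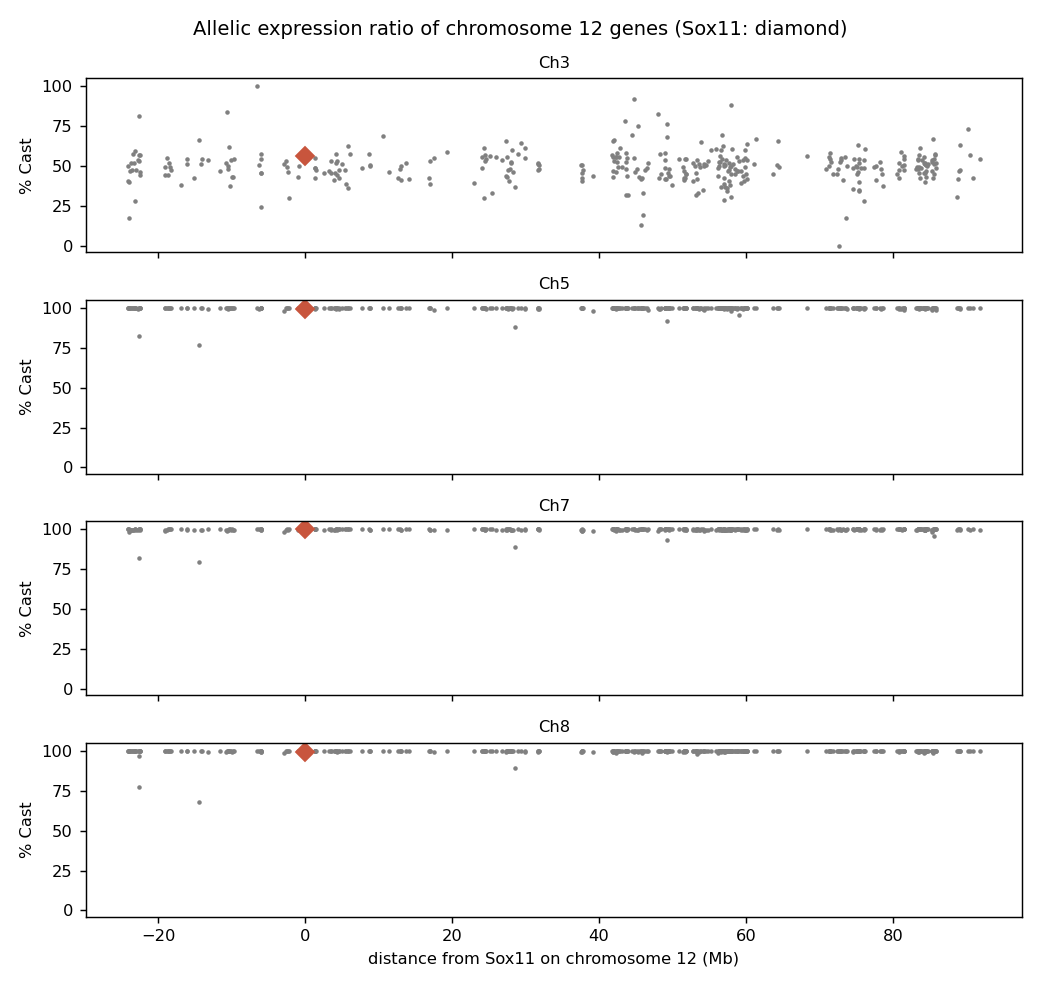
Allelic expression ratio (% Cast, y axis) of chromosome 12 genes in each Ch clone, from 20 allele-specific reads up, against their distance from Sox11 in Mb (x axis). Each point is a gene and the diamond is Sox11. In Ch3 the genes scatter around 49.7%, while in Ch5, Ch7 and Ch8 they lie at 100% along the whole chromosome.

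The median of chromosome 12 was also raised in G4 (63.0%) and F5 (65.8%), but not within 10 Mb of Sox11, where it was 48.1 and 49.3%. In these and the other poly(A) libraries Sox11 was biallelic, at 41.7% (C2) to 64.8% (mC3) in astrocytes and 54.8, 55.1 and 55.3% in F5, mG2 and mG6. Few of its reads could be assigned to an allele, between 60 and 309 in the astrocyte cultures, so that its intervals were wide. In mE6 the interval ran from 49.0 to 72.9%.

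Among the 4 Ch clones, Sox11, Sox5, Sox4 and Sox6 differed in ratio (edgeR with an allele-by-clone term, adjusted p = 4.78e-71, 4.51e-05, 0.037 and 0.0447), and 9.22% of all genes tested did. As for the levels, these p-values measure the spread between 2 libraries of a clone, which may be technical. Of the genes on chromosome 12, 99.4% passed, and of those on other chromosomes 5.83%. Sox4 lay at 48.3, 45.4, 47.2 and 52.3% Cast in Ch3, Ch5, Ch7 and Ch8, and Sox6 at 52.3, 50, 53.5 and 58.3%, so that Ch8 was the highest for both genes and for Sox5. In a fit without the genes of chromosome 12, chosen after the data were seen, Sox5 alone passed, and with DESeq2 Sox11 alone passed. Leaving out 1 library at a time kept between 1 and 4 of the calls. Sox11 stayed past the threshold in each of these 8 fits, Sox5 lost its call without the second library of Ch8, and Sox4 and Sox6 lost theirs without the second library of Ch5 or either library of Ch7 or Ch8. The 2 libraries of a clone gave like ratios. They differed by a median of 3.33 percentage points and at most by 13.1 over 36 comparisons, and 0 passed Fisher's exact test (two-sided, Benjamini-Hochberg adjusted over 39237 comparisons, of which 0.252% passed), with 0 at an unadjusted p below 0.05.

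**Figure D5:**
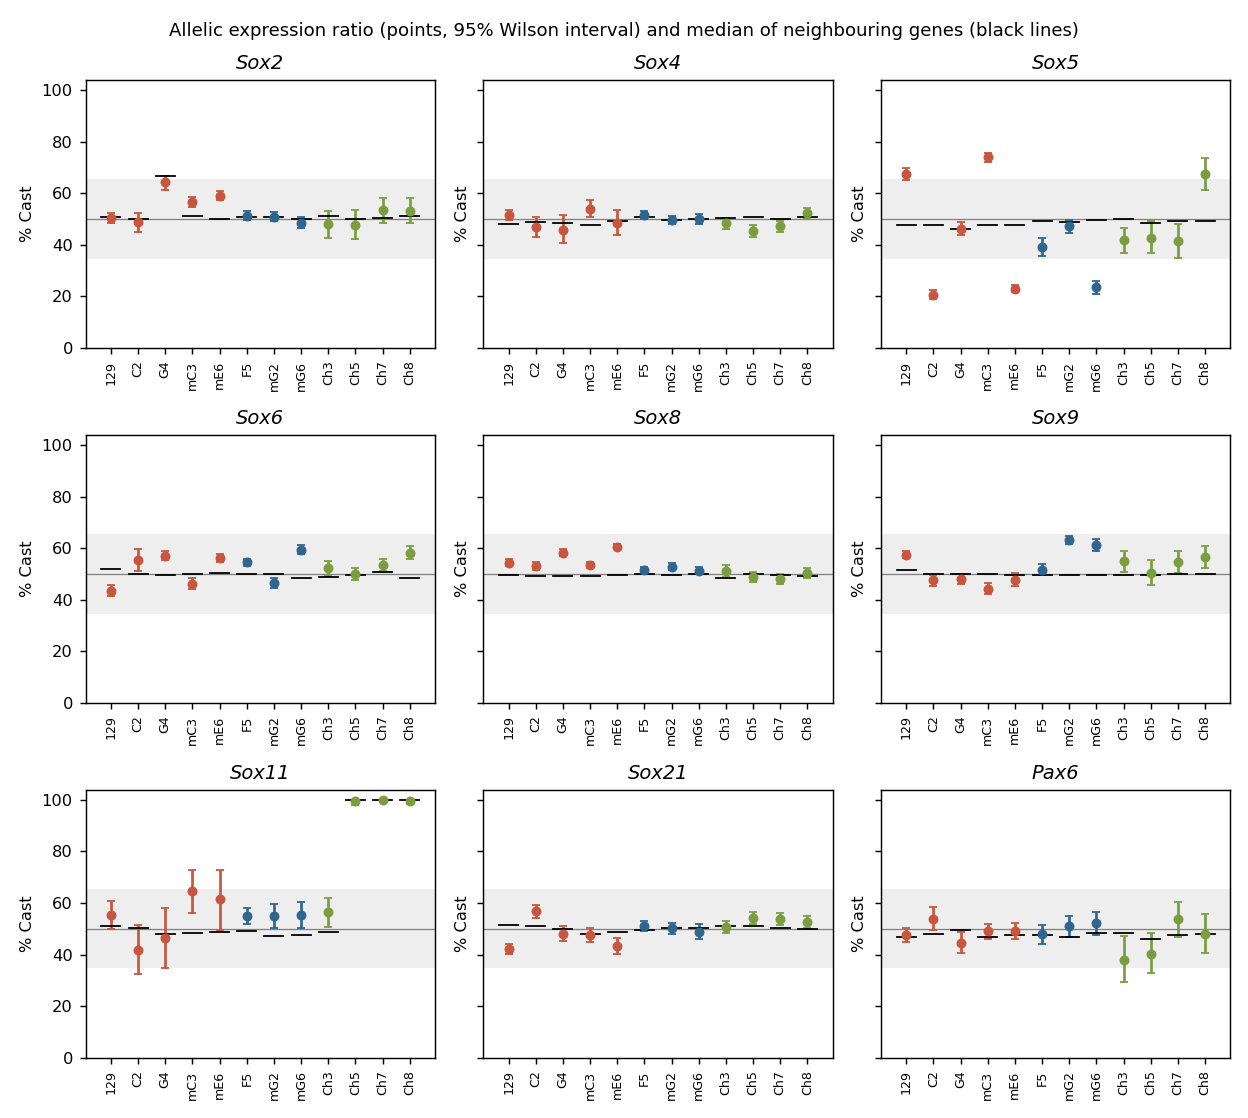
Allelic expression ratio (% Cast, y axis) of the 9 genes in each clone (x axis), with astrocytes in red, poly(A) NPC clones in blue and Ch clones in green. Bars are 95% Wilson intervals, black lines the median of genes within 10 Mb, and the grey band runs from 35 to 65%. Sox5 departs from its neighbours in both directions, and Sox11 lies at 99.4 to 100% in Ch5, Ch7 and Ch8 together with its neighbours.

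Astrocytes and poly(A) NPC clones were compared to ask whether the mean ratio of a gene changes with the cell type. Of the members, 0 of 9 passed, and 1.08% of all genes tested did (edgeR with an allele-by-cell-type term). DESeq2 called 0 as well, and 1 member, Sox9, had an unadjusted p below 0.05 with edgeR. Sox9 averaged 49.0 ± 4.96% Cast (SD, n = 5) in astrocytes and 58.7 ± 6.14 (n = 3) in poly(A) NPCs, with mG2 at 63.1% and mG6 at 61.2%. The 2 groups overlapped, since clone 129 was at 57.5% and F5 at 51.7%. Its adjusted p of 0.266 ran from 0.119 to 0.568 over the alternatives. Sox5 averaged 46.2 ± 24.5% (SD, n = 5) against 36.6 ± 12.1 (n = 3), and its spread between clones was larger than that difference.

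Constant preferences for one parental allele were small. In astrocytes, Sox8 was called toward Cast, with 60.6% in mE6, 58.2% in G4 and 53.0 to 54.4% in the other 3 cultures (log2 Cast over 129 of 0.34 ± 0.08 SE, adjusted p = 0.0297, edgeR), where 31.1% of all genes were called, 12.3% toward Cast and 18.8% toward 129. The Sox8 ratio was above 50% in 5 of 5 cultures, but the call was lost when any one of them was left out (adjusted p up to 0.0683). In the Ch clones, Sox21 was called toward Cast, at 50.7 to 54.3% (0.16 ± 0.05 SE, adjusted p = 0.0475, edgeR), where 35.3% of all genes were called, 12.8% toward Cast and 22.6% toward 129. It lost its call without Ch5, Ch7 or Ch8. In the poly(A) NPC clones, 0 members were called with edgeR, 3 had an unadjusted p below 0.05, and DESeq2 called Sox8, Sox9 and Sox11, where edgeR called 20% of all genes, 7.54% toward Cast and 12.5% toward 129.

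The ratio of Sox2 moved with its chromosome in 1 clone. In the astrocytes of G4 it was at 64.2% Cast, where the median of chromosome 3 was 66.0% and that of the genes within 10 Mb 66.7%. Total reads on chromosome 3 in G4 were higher than in the other astrocytes, by 0.54 on the log2 scale relative to the other autosomes. In mC3 and mE6 Sox2 was at 56.7 and 59.0%, while the chromosome medians were 49.0 and 49.4%. Pax6 stayed between 37.96% (Ch3, 108 allele-specific reads) and 53.9% (C2), and its interval held 50% in 9 of 12 clones.

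Of the noncoding genes named after members, 4 were found in the files and had few reads, and Sox2ot was not analysed here. Pax6os1, antisense to Pax6, had 23 reads over the 5 astrocyte cultures, 3 over the poly(A) NPC clones and 0 over the Ch clones. Sox1ot, counted as Gm5607, had 51, 70 and 217 reads in these groups. Sox6os, counted as 1110006G14Rik, had 137, 68 and 40, and Sox5os3, counted as 4933425H06Rik, had 0 in each.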

How the data were processed

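RNA-seq was measured in 16 libraries of 12 clones. The authors masked the genome (GRCm38/mm10) at SNPs between 129/Sv and Cast/EiJ, aligned reads with TopHat2 (2.1.0) and Bowtie2, assigned them to alleles with SNPsplit and counted reads per gene by strand with featureCounts (1.5.1). The annotation version is not given in the sources used here. The deposited counts are unnormalized (Cast, 129 and all reads). The deposited fraction of Cast reads, given from 10 allele-specific reads, was not used. Of 50600 Ensembl identifiers 32722 were given a symbol and 26023 a RefSeq position on GRCm38.p6.

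All-read counts were tested across all genes with edgeR 4.0.16 (quasi-likelihood, TMM, expression filter), with DESeq2 1.42.0 as an alternative, in R 4.3.3. Allele counts were tested in the same way with the library as a term, for genes reaching 20 allele-specific reads in each sample tested. Reads of both libraries were added up per Ch clone, except in tests among Ch clones. Adjusted p below 0.05 was the threshold. Both steps were also run on simulated data with a fixed spread that was not taken from these clones. Those runs give no error rate for the tests reported here. Ratios, Wilson intervals, Fisher tests and medians used Python 3.11.15 (scipy 1.17.1). The 95% Wilson intervals cover counting error only.

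The members and lists were chosen with earlier results of these data known. Named were all members, list genes past the threshold in the main comparison (at most 4 per list and direction, by size, and for the last list all 5, the fifth chosen after its values were seen), noncoding genes named after members, and the 2 genes most like each member. Female and male clones came from separate stem cell lines, per the study's methods, and the labels do not tie each clone to a differentiation. The p-values therefore measure the spread between these clones. In the tests among Ch clones they measure the spread between libraries of a clone. Ch5, Ch7 and Ch8 shared a chromosome 12 read almost only from the Cast allele. The tests took the Ch clones as separate replicates, and whether they arose independently of each other was not tested. Alternatives changed the normalization, filter, read minimum, covariate and tool, and left out each clone or library in turn. Sox1 was not analysed here. One list gene that the naming rule covers is not reported here.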

Additional observations from a re-analysis of the deposited data

Results flagged for a closer look

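Among 36 groups of clones examined with Dixon's test (9 genes in level and in ratio, in the 5 astrocyte cultures and the 4 Ch clones), 6 held a clone that stood apart from the rest. Chance gives about 1 in 20 for a single group. The groups share clones, and some genes vary together, so no excess over chance can be read from the count. In astrocytes the clone that stood apart was 129 both times. Sox4 was at 189.8 CPM there, against 29.1 to 73.3 CPM in the other cultures, and Sox9 was at 57.5% Cast, against 44.3 to 48.0%. Among the Ch clones, Ch3 stood apart for Sox11, at 275.4 CPM against 315 to 322 CPM and at 56.4% Cast against 99.4 to 100%, where the median of chromosome 12 was 49.7% in Ch3 and 100% in the others. Ch3 also stood apart for Sox8, at 161 CPM against 186 to 190 CPM with the libraries of each clone summed. The 2 libraries of Ch3 were at 167 and 157 CPM, and the first library of Ch8 was at 164 CPM. Sox8 did not pass the test of level among the Ch clones (adjusted p = 0.479, edgeR). Sox5 was at 67.6% Cast in Ch8, against 41.3 to 42.8% in the other Ch clones.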

How the results depend on the processing

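Of 808 values recomputed under another setting, 711 kept their direction and side of the threshold, 21 passed it newly, 39 no longer passed and 37 changed sign. The cause was not tested. Between astrocytes and poly(A) NPCs the 2 calls became 1 (Pax6) with the astrocytes 129, mC3 and mE6 alone and ran from 0 to 2 when 1 clone was left out. Among Ch clones the 3 expression calls became 5 without a filter on low counts and ran from 1 to 5 when 1 library was left out. The 4 calls in ratio became 1 with DESeq2 and 1 without the genes of chromosome 12, and ran from 1 to 4 when 1 library was left out. Toward one allele, the 1 call in astrocytes became 0 without any 1 clone, the 0 calls in poly(A) NPCs became 1 at a minimum of 50 reads and 3 with DESeq2, and the 1 call in Ch clones became 3 with DESeq2 and ran from 0 to 2 when 1 clone was left out. The 5 calls between Ch and poly(A) NPC clones ran from 4 to 6 when 1 clone was left out, and the median of all genes shifted there by 0.16 with upper-quartile factors and 0.26 without a filter. None of the values that changed sign passed the threshold as reported or with the changed sign. On the log2 scale of expression, Sox9 became -0.10 with sex as a covariate and Sox8 became 0.11 with the astrocytes 129, mC3 and mE6 alone. Leaving out 1 clone gave -0.34 to 0.051 for Sox8 and -0.16 to 0.51 for Sox9. For the difference in Cast over 129 between the cell types, Sox11 became 0.094 with allele by sex as a term, Sox4 0.058 and Sox11 0.32 with 129, mC3 and mE6 alone, and Sox5 -0.26, Sox6 0.17 and Sox21 0.14 with C2 and G4 alone. Leaving out 1 clone gave -0.31 to 0.071 for Sox6 and -0.22 to 0.12 for Sox11. For Cast over 129 in astrocytes it gave -0.10 to 0.017 for Sox4, -0.74 to 0.18 for Sox5 and -0.18 to 0.013 for Sox9. In poly(A) NPC clones it gave -0.017 to 0.065 for Sox2, -0.0087 to 0.045 for Sox4, -0.027 to 0.035 for Sox21 and -0.036 to 0.088 for Pax6. In Ch clones it gave -0.019 to 0.090 for Sox2, -0.47 to 0.035 for Sox5 and -0.057 to 0.0033 for Sox8. With the library number as a replicate block, 3 members were called in expression and 4 in ratio among Ch clones, as without it. Deviations of libraries with the same number correlated at -0.32 to 0.49 over the 6 pairs of clones, above 0.1 in 3, so the numbers were not taken as pairs. Depth limits the ratio of Sox11 in astrocytes, at 60 to 309 allele-specific reads.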
